A study of Mus musculus with 11 samples.

Results

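The genes of DNA replication were examined in RNA of whole cortex from E14.5 mouse embryos, when progenitors still divide and neurons are being born. Members were chosen by symbol alone: the origin recognition, MCM, GINS, polymerase alpha, delta and epsilon, primase, RFC and RPA genes, with Pcna, Cdc6, Cdt1, Cdc45, Fen1, Lig1, Gmnn and Dbf4. The deposited table held 24138 loci and 47 of them carried such a symbol. The study compared 2 Chd8 conditional knockout (cKO) libraries, genotype Chd8 c/c with Emx1-cre, with 3 control libraries labelled as carrying floxed alleles and no Cre. Control 1 was labelled Chd8 c/+, and controls 2 and 3 were labelled Chd8 c/c. Emx1-cre acts in dorsal telencephalic progenitors and their progeny, so interneurons, vessels and microglia in the same tissue keep Chd8. Chd8 encodes a chromatin remodelling enzyme. Whether embryos were pooled is not labelled, so p-values measure the spread between these libraries, which may be technical.

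A cell copies its genome in steps that each have their own proteins. The origin recognition complex (ORC), Cdc6 and Cdt1 load the MCM2-7 helicase onto DNA in G1, and geminin (Gmnn) blocks a further round of loading. The kinase subunit Dbf4, Cdc45 and the GINS complex then turn the loaded helicase into a moving one. Polymerase alpha with primase starts each strand, polymerases epsilon and delta extend it on the sliding clamp PCNA, which the RFC complex loads, RPA covers the exposed single strands, and Fen1 and Lig1 finish Okazaki fragments. In the embryonic cortex these genes are transcribed mainly in cycling progenitors, many of them through E2F factors at the transition from G1 to S phase. In whole tissue, fewer cycling cells and less RNA per cycling cell cannot be told apart.

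Promoters of these genes often held the letters of an E2F site. RefSeq promoters of GRCm38.p6, from 250 bases before to 50 after each annotated start, were at hand for 39 of the 47 members (Gins1, Gins2, Gins4, Gmnn, Mcm4, Pole, Prim2 and Rfc2 had no entry). The motif was searched as TTCCCGC, as its variant TTCGCGC, as a further variant TTGCCGC and as the variant TTGGCGC, on both strands, and matches may overlap. At least 1 stood in 28 of 48 member promoters (58.3%), against 16.9% of 12288 promoters of tested loci and 9.57% of all 32851 promoters. CCAAT, also on both strands, stood in 54.2% of member promoters, against 37.7% of those of tested loci. The CHR letters, TTTGAA or the variant TTCGAA on either strand, stood in 16.7% of member promoters, against 13.0% of those of tested loci. The stretches upstream of the start used for the promoter are shown for 4 members. Mcm5 and Mcm6 were taken as helicase genes with several matches. Pola1 was taken because it was higher in both cKO libraries, and Pole3 because it had the most negative change. The annotated span of Pola1 covers its whole stretch and that of Mcm5 the end of its stretch. These 2 stretches are therefore not fully upstream of the annotated gene. Capitals mark E2F letters on either strand, and neighbouring or overlapping matches run together.

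Mcm5 (chr8:75109329-75109508, plus strand): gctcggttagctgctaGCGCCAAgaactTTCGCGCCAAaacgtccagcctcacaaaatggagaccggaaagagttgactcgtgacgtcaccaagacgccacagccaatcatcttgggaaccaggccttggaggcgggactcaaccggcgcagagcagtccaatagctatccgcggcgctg
Mcm6 (chr1:128359706-128359845, minus strand): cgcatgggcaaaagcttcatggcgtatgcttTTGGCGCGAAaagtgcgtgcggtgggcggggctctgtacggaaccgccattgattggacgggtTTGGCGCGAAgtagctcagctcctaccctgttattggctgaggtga
Pola1 (chrX:93632156-93632335, minus strand): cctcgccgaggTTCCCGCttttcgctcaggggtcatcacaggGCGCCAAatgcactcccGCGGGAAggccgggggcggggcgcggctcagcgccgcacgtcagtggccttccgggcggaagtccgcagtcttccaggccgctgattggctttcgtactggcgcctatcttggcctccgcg
Pole3 (chr4:62525015-62525094, minus strand): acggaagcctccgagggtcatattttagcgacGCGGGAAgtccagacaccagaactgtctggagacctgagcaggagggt

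A match is a string of letters and not a measured site. Mcm2, Cdc45, Pcna and Mcm10 had no match in these windows.

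The deposited expression values were taken as FPKM, a value scaled by transcript length and library size. On that reading, levels of different genes can be set side by side. All 47 members had a mean of at least 1 FPKM and were tested among 12672 such loci. A log2 change is the cKO mean minus the control mean of log2(FPKM + 1), a scale on which changes of weakly expressed genes look smaller, and p-values come from limma, adjusted over all tested loci. Library totals of FPKM ran from 418191 to 484296, and the sequencing depth is unknown. Chd8 RNA was 19.3 and 15.1 FPKM in cKO 1 and 2, against 31.5, 30.0 and 31.8 FPKM in controls 1 to 3, so the deletion was visible in both cKO libraries. Its log2 change of -0.83 did not pass over all loci (limma adjusted p = 0.575), while its q-value in the authors' deposited table was 0.00331. The limma test with these libraries can therefore miss a change that the authors' test gave a low q-value.

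The replication genes did not separate the cKO cortex from the control cortex. No member passed limma at an adjusted p under 0.05, where 0.0473% of all tested loci did, 0.0158% as higher and 0.0316% as lower in the cKO. Of the members, 3 were higher in both cKO libraries than in every control (Pola1, Rfc4 and Orc5), where 13.4% of all tested loci were. None was lower in both than in every control, where 15.6% of all loci were. Both cKO libraries lay inside the range of the controls for 22 members (46.8%), against 28.6% of all loci. A change above 0 was seen in 29 members and below 0 in 18, with a median of 0.09, against a median of -0.02 over all tested loci.

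The smallest adjusted p of any member was 0.575, and at an unadjusted p under 0.05 there was 1 member, Pola1, where 7.45% of all loci reached that level. In the authors' deposited table no member was marked significant, where 4.21% of the 13511 loci they tested were, and the lowest q-value of a member was 0.0520, for Pole3. For 40 of the 47 members the 95% interval lay within a 2-fold change of FPKM + 1 in either direction. It reached beyond a 2-fold change for Cdc45, Pold1, Pole2, Pole3, Rfc4, Fen1 and Lig1, so a change of that size is not excluded for these genes. For weakly expressed members the interval does not bound the fold change of FPKM itself. With a pseudocount of 0.1 the log2 change was 0.16 (SE 0.50) for Orc1, 0.33 (SE 0.29) for Cdc6 and 0.54 (SE 0.21) for Pola1. A 2-fold change is therefore not excluded for these genes either. The smallest p that an exact two-sided permutation of 2 against 3 libraries allows is 0.1.

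**Figure D1:**
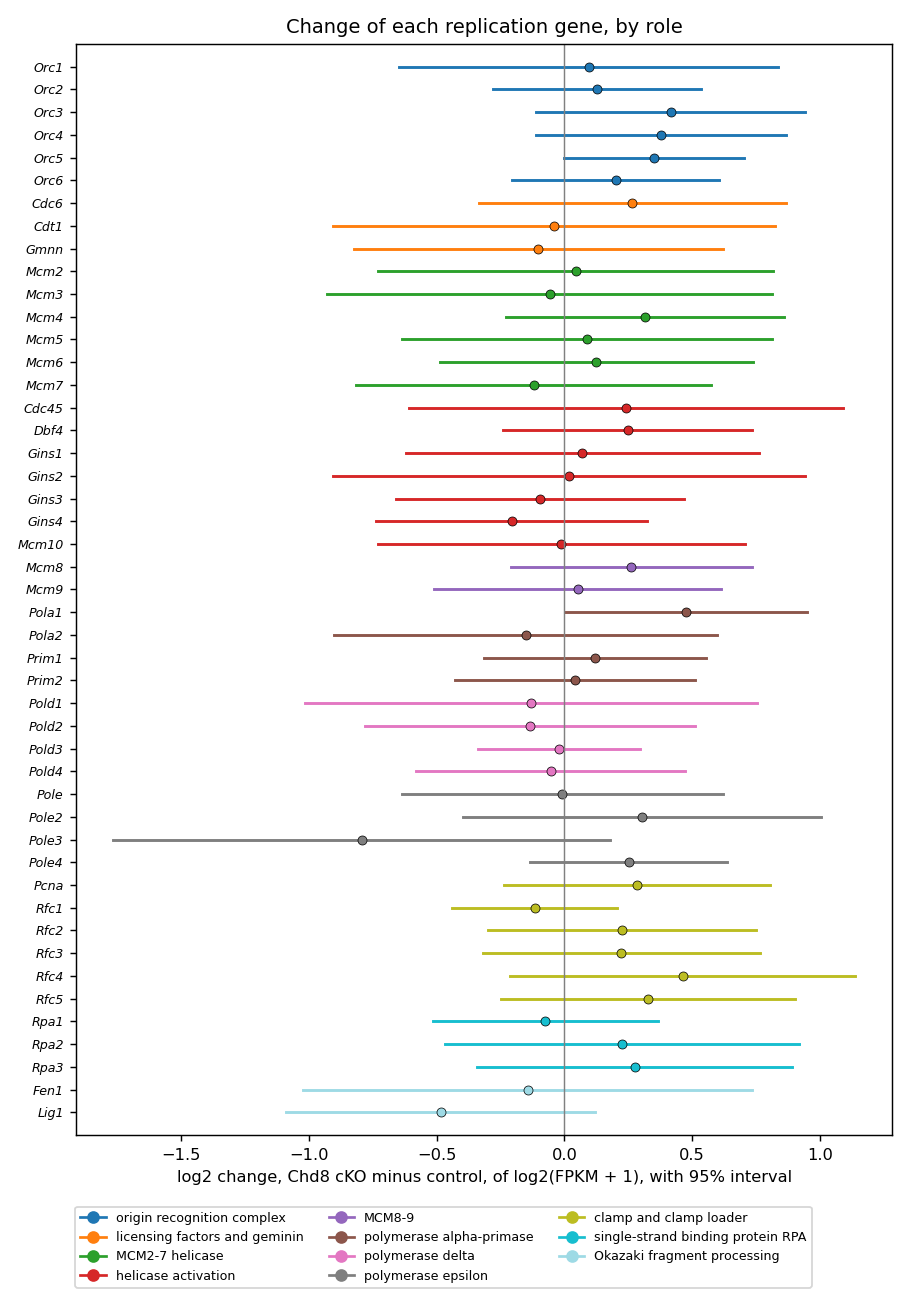
Log2 change of each replication gene in cKO relative to control libraries, from log2(FPKM + 1) (x axis), with its 95% limma interval, ordered by role (y axis). The interval of 46 of the 47 genes includes 0, and that of Pola1, which does not, has an adjusted p of 0.575.

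The controls themselves differed widely in these genes. Control 1 was the lowest of the 5 libraries for 38 of 47 members (80.9%), against 19.0% of all tested loci, and control 2 was the highest for 26 (55.3%), against 34.8%. Control 1 was below control 2 in 44 members (93.6%), where 50.8% of all loci were, and the median ratio of control 2 to control 1 was 1.66 for the members and 1.01 for all loci. Summed over the 47 genes, FPKM was 1098.9 in cKO 1 and 1254.7 in cKO 2, against 870.4, 1406.0 and 1192.8 in controls 1 to 3. Both cKO sums lay between the sums of controls 1 and 2.

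The direction of the median turned on single libraries. It was -0.08 without control 1, 0.23 without control 2, 0.19 without cKO 1 and -0.02 without cKO 2. Members below both remaining controls in both cKO libraries numbered 14 of 47 without control 1 (29.8%), against 28.8% of all loci in that comparison, and members above numbered 6 (12.8%), against 27.8% of all loci. Without control 2 there were 14 of 47 above (29.8%), against 18.2% of all loci, and none below, against 19.6% of all loci. No member passed the limma test in any of these fits. In the fits without a cKO library the remaining one stands alone, so the spread comes from the controls and the lone library is assumed to vary like them. Control 1 is also the single library labelled c/+, so its genotype and its low level cannot be told apart.

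**Figure D2:**
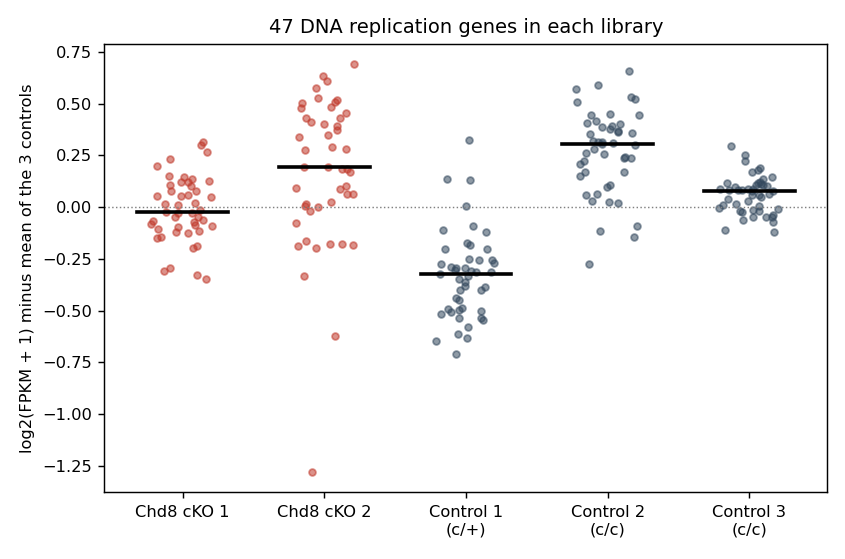
Log2(FPKM + 1) of each of the 47 replication genes minus that gene's mean over the 3 controls (y axis), in each library (x axis), with the median as a black bar. Control 1 sits lowest at a median of -0.32 and control 2 highest at 0.31, with the cKO libraries at -0.02 and 0.19 between them.

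Summed over each role, the origin recognition genes varied least among the 3 controls. ORC marks the sites at which helicases are loaded, and Orc1 is its subunit with the most cell cycle dependent level. Their summed FPKM was 84.0 in cKO 1 and 108.9 in cKO 2, against 78.8, 77.2 and 79.4 in controls 1 to 3. Both cKO sums were above every control, by a small margin in cKO 1. All 6 genes had a change above 0, with a median of 0.28, and none passed. Only Orc5 was above every control in both cKO libraries, 1 of 6 (16.7%), where 13.4% of all tested loci were. The median log2 difference of the 6 genes from their control mean was 0.07 in cKO 1 and 0.45 in cKO 2.

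Orc5, an ATPase-fold subunit, was 13.5 and 16.9 FPKM in cKO 1 and 2, against 11.7, 11.9 and 11.3 FPKM in controls 1 to 3. The groups did not overlap, and the log2 change was 0.35 (SE 0.14, limma adjusted p = 0.575). Without cKO 2 it was 0.20. Orc6, the most abundant subunit, was 26.7 and 35.1 FPKM in the cKO libraries, against 24.5, 27.7 and 27.5 FPKM in the controls, so the groups overlapped.

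Orc3 averaged 17.9 ± 2.11 FPKM in the cKO and 13.3 ± 3.07 FPKM in the controls (SD, n = 2 and 3), and Orc4 averaged 15.4 ± 4.07 and 11.5 ± 1.20 FPKM. These and Pole4 were the 3 members with control 2 as the lowest library, the opposite of the common order. Orc2 averaged 15.5 ± 2.46 in the cKO and 14.1 ± 1.53 FPKM in the controls. Orc1 was far below its partners, at 1.08 and 1.92 FPKM in cKO 1 and 2, against 0.854, 1.96 and 1.23 FPKM in controls 1 to 3. In every library Orc6 was highest and Orc1 lowest, from 14.1 to 28.7 times apart, while the order of Orc2 to Orc5 changed between libraries.

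Licensing genes overlapped between the groups. Cdt1, which brings the helicase to ORC, was 19.8 and 23.0 FPKM in cKO 1 and 2, against 14.4, 33.6 and 21.7 FPKM in controls 1 to 3. Gmnn, its inhibitor, averaged 20.2 ± 1.73 FPKM in the cKO and 22.5 ± 7.04 FPKM in the controls. The ratio of Gmnn to Cdt1 was 0.962 and 0.932 in the cKO libraries, against 1.02, 0.836 and 1.15 in the controls. The cKO ratios lay inside the control range. Cdc6, the ATPase that works with ORC, averaged 4.60 ± 0.787 FPKM in the cKO and 3.71 ± 1.02 FPKM in the controls.

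The 6 genes of the MCM2-7 helicase shared 1 order of the controls, with control 1 lowest and control 2 highest. Their summed FPKM was 240.5 and 292.1 in cKO 1 and 2, against 182.1, 340.3 and 272.4 in controls 1 to 3. Over all 5 libraries, 6 of 6 were lowest in control 1 and 5 were highest in control 2, with Mcm4 highest in cKO 2. Mcm6 was 53.1 and 58.4 FPKM in the cKO libraries, against 38.4, 66.2 and 52.2 FPKM in the controls. For 5 of the 6 genes, all but Mcm4, both cKO values lay within the control range.

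Mcm2 averaged 52.1 ± 7.85 FPKM in the cKO and 52.2 ± 17.4 FPKM in the controls, a log2 change of 0.04 with an interval of -0.73 to 0.82. That change was -0.22 without control 1 and 0.27 without control 2. Mcm3 averaged 40.9 ± 2.46 and 44.9 ± 17.5 FPKM, Mcm5 37.1 ± 6.90 and 35.7 ± 10.7 FPKM, and Mcm7 50.4 ± 10.4 and 55.7 ± 15.3 FPKM, the cKO first in each case. Mcm7 overlaps Ap4m1 and hosts Mir25, Mir93 and Mir106b in the annotation, and the strand setting of the counting is not given in the sources used here. Mcm4, the least abundant of the 6 in every library, averaged 30.1 ± 5.16 FPKM in the cKO and 24.2 ± 4.84 FPKM in the controls (log2 change 0.32, limma adjusted p = 0.626). Subunits of the hexamer differed by 1.73 to 2.50 times between the highest and lowest within a library.

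**Figure D3:**
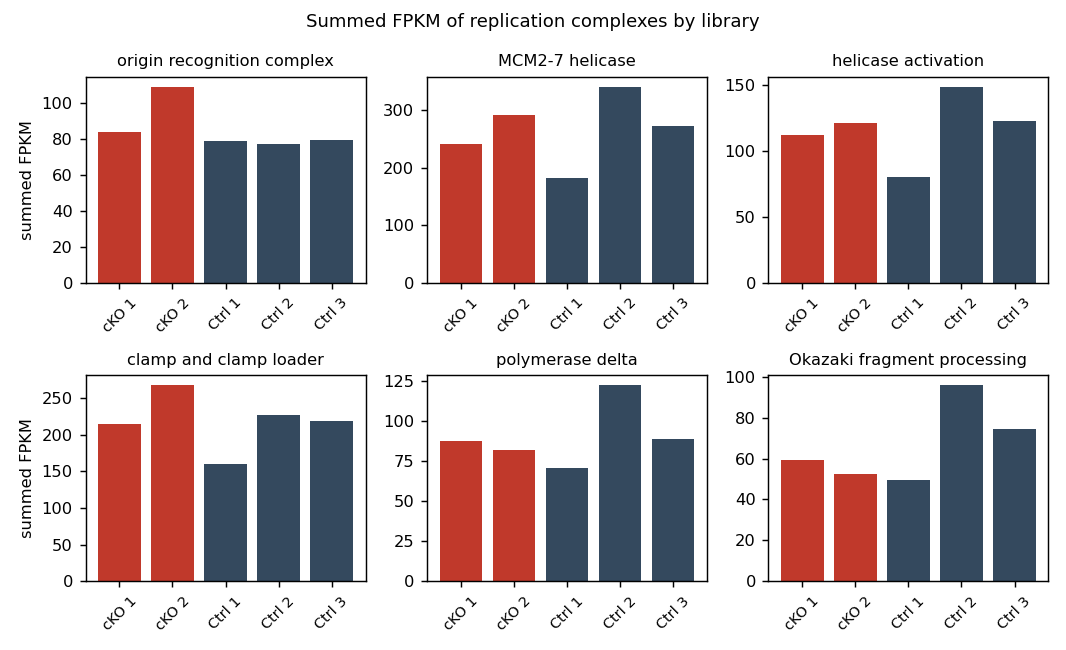
Summed FPKM (y axis) of the genes of 6 replication complexes or steps in each library (x axis; red, cKO; dark blue, control). The origin recognition sum is nearly level in the 3 controls, at 77.2 to 79.4, while the MCM2-7 sum spans 182.1 to 340.3 in the same libraries.

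Genes that activate the helicase followed the same order of controls. Gins4, a subunit of the GINS clamp of the helicase, was 25.1 and 21.0 FPKM in cKO 1 and 2, against 21.5, 33.3 and 26.3 FPKM in controls 1 to 3. Cdc45, which joins GINS and MCM2-7 in the active helicase, averaged 16.9 ± 3.34 FPKM in the cKO and 14.7 ± 5.43 FPKM in the controls. Dbf4, the activating subunit of the Cdc7 kinase, averaged 18.3 ± 1.88 and 15.4 ± 2.92 FPKM. For each of the 3 the groups overlapped.

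Gins1 averaged 23.6 ± 2.38 FPKM in the cKO and 23.1 ± 6.98 FPKM in the controls, Gins2 22.4 ± 0.0225 and 23.6 ± 9.73 FPKM, all overlapping. Gins3, at 3.57 and 5.03 FPKM in the cKO libraries, against 3.57, 5.48 and 4.95 FPKM in the controls, was the lowest of the 7 activation genes in every library although the GINS proteins form a complex of equal parts. Mcm10, which helps the helicase start, averaged 8.24 ± 0.705 FPKM in the cKO and 8.63 ± 2.93 FPKM in the controls. Mcm8 and Mcm9 form a separate helicase known for recombination and are not part of MCM2-7. Mcm8 was 5.13 and 5.37 FPKM in the cKO libraries, against 3.39, 5.14 and 4.25 FPKM in the controls, and Mcm9 averaged 2.27 ± 0.0903 in the cKO and 2.20 ± 0.633 FPKM in the controls.

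Pola1, the catalytic subunit of polymerase alpha, had the most positive change of the 47. It was 7.29 and 10.1 FPKM in cKO 1 and 2, against 5.09, 6.43 and 6.28 FPKM in controls 1 to 3. Both cKO values exceeded every control. The mean was 147.0% of the control mean, and the log2 change was 0.48 (SE 0.19, unadjusted p = 0.0488, adjusted p = 0.575 in limma). Without cKO 2 the change was 0.26, and the authors' deposited table gave a q-value of 0.102.

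Its partner subunits did not share that pattern. Prim1, the primase that makes the RNA primer, was 30.1 and 33.1 FPKM in the cKO libraries, against 23.8, 32.3 and 31.5 FPKM in the controls. Pola2, the accessory subunit, averaged 16.8 ± 0.438 FPKM in the cKO and 19.6 ± 7.11 FPKM in the controls, and Prim2 averaged 20.5 ± 1.11 and 20.1 ± 4.12 FPKM. The ratio of Pola1 to Prim1 was 0.243 and 0.306 in the cKO libraries, against 0.213, 0.199 and 0.199 in the controls. These ratios did not overlap between the groups, a pair chosen after the values were seen. Of the other ratios taken, Mcm7 to Mcm5, Pola1 to Pola2, Lig1 to Pcna and Rfc4 to Rfc1 did not overlap either. Gmnn to Cdt1, Lig1 to Fen1, Pole3 to Pole4, Orc1 to Orc6 and Pold1 to Pold3 overlapped. Several pairs hold a gene with an extreme change, so no weight is given to their separation.

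Polymerase delta genes lay within the control range throughout. Pold2, a regulatory subunit, was 35.4 and 32.9 FPKM in cKO 1 and 2, against 28.6, 51.6 and 35.9 FPKM in controls 1 to 3. All 4 changes were below 0, between -0.14 and -0.02, and both cKO values of each gene were inside the range of the controls. Pold1, the catalytic subunit, averaged 21.3 ± 1.40 FPKM in the cKO and 24.9 ± 11.2 FPKM in the controls, and Pold3 averaged 19.0 ± 0.500 and 19.3 ± 1.53 FPKM. The locus of Pold4 also carried Clcf1, so its 10.4 ± 1.22 FPKM in the cKO and 10.9 ± 2.51 FPKM in the controls cannot be assigned to a single gene.

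Polymerase epsilon held the most negative change. Pole3, a histone-fold subunit that is also found in the CHRAC chromatin complex, was 51.2 and 25.6 FPKM in cKO 1 and 2, against 44.5, 85.2 and 67.6 FPKM in controls 1 to 3. The low value came from cKO 2, while cKO 1 lay inside the control range. The log2 change was -0.79 (SE 0.39, limma adjusted p = 0.575), and it was -0.31 without cKO 2 and -1.28 without cKO 1.

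Pole4, the histone-fold partner of Pole3, was not lower in the cKO, at 17.0 ± 2.61 FPKM in the cKO and 14.1 ± 1.31 FPKM in the controls. Pole, the catalytic subunit, averaged 7.96 ± 1.66 and 8.11 ± 2.16 FPKM, and Pole2 averaged 7.13 ± 1.40 and 5.73 ± 1.91 FPKM. Within each library the order was Pole3, Pole4, Pole and Pole2, with a range from highest to lowest of 3.15 times in cKO 2 and 8.34 times in cKO 1, against 11.2 to 11.8 times in the controls.

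Of the 6 clamp and clamp loader genes, 5 had a change above 0, with a median of 0.25, and none passed. Rfc2, the most abundant, was 65.0 and 80.0 FPKM in cKO 1 and 2, against 49.6, 73.1 and 64.3 FPKM in controls 1 to 3. Rfc4 was 31.1 and 38.4 FPKM in the cKO libraries, against 17.4, 29.9 and 29.1 FPKM in the controls. Rfc4 did not overlap between the groups, with a log2 change of 0.46 (SE 0.27, limma adjusted p = 0.578) that was 0.22 without control 1. It overlaps Eif4a2 in the annotation, and whether the loci share reads was not tested.

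Pcna, the clamp itself, averaged 54.5 ± 9.42 FPKM in the cKO and 44.8 ± 7.89 FPKM in the controls. The annotation names pseudogenes of Pcna, and whether they share reads with it was not tested. Pseudogenes of other members were searched by symbol only. Rfc3 averaged 45.5 ± 9.48 and 38.9 ± 7.19 FPKM, and Rfc5 21.3 ± 4.18 and 16.9 ± 3.68 FPKM. Rfc1, the large subunit, was the exception in sign, at 12.6 ± 0.907 FPKM in the cKO and 13.8 ± 0.968 FPKM in the controls. The order Rfc2, Pcna, Rfc3, Rfc4, Rfc5 and Rfc1 was the same in all 5 libraries.

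RPA genes overlapped between the groups. Rpa3, the smallest subunit, was 37.1 and 56.8 FPKM in cKO 1 and 2, against 32.7, 35.4 and 46.5 FPKM in controls 1 to 3. Rpa2 averaged 33.0 ± 9.35 FPKM in the cKO and 28.2 ± 7.54 FPKM in the controls, and Rpa1, the main DNA-binding subunit, averaged 33.6 ± 0.114 and 35.8 ± 6.23 FPKM. The cKO libraries were apart from each other for Rpa2 and Rpa3 and alike for Rpa1.

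Both genes of Okazaki fragment processing were lower on average in the cKO, and neither passed. Lig1, the ligase that seals the fragments, was 31.3 and 25.7 FPKM in cKO 1 and 2, against 30.2, 50.2 and 42.6 FPKM in controls 1 to 3. Both cKO libraries were below controls 2 and 3, cKO 2 was the lowest of the 5 libraries, and cKO 1 was slightly above control 1. The log2 change of Lig1 was -0.48 (SE 0.24, limma adjusted p = 0.575), -0.69 without control 1 (adjusted p = 0.315) and -0.33 without control 2. Fen1, the flap nuclease, averaged 27.5 ± 0.889 FPKM in the cKO and 32.3 ± 13.2 FPKM in the controls.

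Because the libraries differed in the whole set, each gene was also taken as a percentage of the summed FPKM of the 47 members in its library, a measure added after seeing the data. By this share 10 members (21.3%) were above every control in both cKO libraries, against 3 on the FPKM as deposited: Cdc6, Mcm4, Dbf4, Mcm8, Pola1, Pole2, Pcna, Rfc2, Rfc4 and Rfc5. Pole3 and Lig1 were below every control in both, against none on the FPKM as deposited. Divided by the same sums, 3.2% of all tested loci were above every control and 13.8% below. These percentages are no measure of the members, since the divisor was made from the members themselves. Pola1 made up 0.664% and 0.808% in the cKO libraries, against 0.584%, 0.457% and 0.527% in the controls, and Lig1 2.85% and 2.05%, against 3.46%, 3.57% and 3.57%. Shares within a library sum to the whole, so they depend on each other, and no test was made on them.

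Promoter letters did not sort the members by how much the controls differed. The ratio of control 2 to control 1 had a median of 1.67 for the 25 members with E2F letters in a promoter and of 1.57 for the 14 without, with ranges of 0.639 to 2.37 and 1.02 to 2.21. Mcm6, with 5 matches in its 300 bases, had a ratio of 1.73, and Cdc45, with none, had 2.21. Orc3 and Orc4 had E2F letters and ratios of 0.639 and 0.811.

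**Figure D4:**
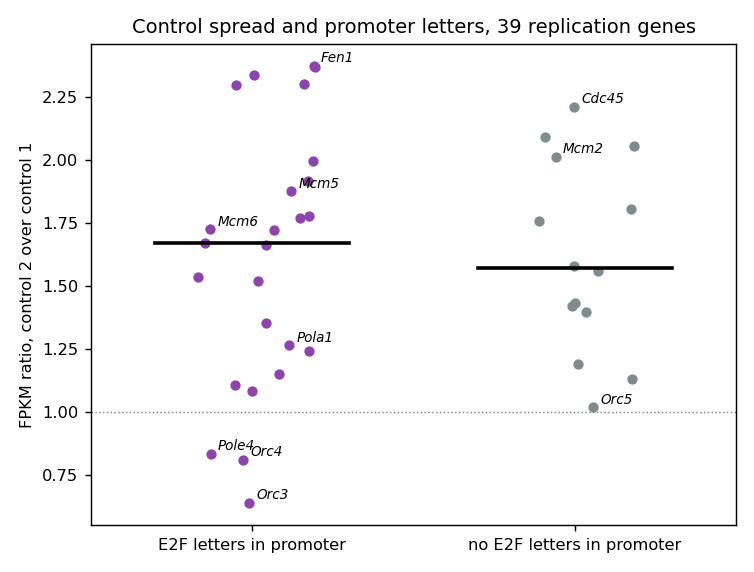
Ratio of FPKM in control 2 to control 1 (y axis) for the 39 replication genes with a RefSeq promoter, split by whether the promoter holds E2F letters (x axis), with the median as a black bar. The medians are 1.67 with and 1.57 without the letters, and the sets overlap.

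Other genes of the S phase programme were read from 6 lists, and none of these genes passed limma over all loci. Median log2 changes were 0.02 for 19 origin firing and fork factors, 0.09 for 11 nucleotide supply genes, 0.05 for 10 chromatin assembly genes and 0.06 for 13 E2F and RB family genes. The 7 S phase cyclins and kinases had 0.17 and the 8 replication checkpoint genes 0.09. Ccne2, a cyclin E gene that drives entry into S phase, was the only gene of the 6 lists at an unadjusted p under 0.05. Of all tested loci, 7.45% reached that level. Ccne2 was 5.93 and 8.46 FPKM in cKO 1 and 2, against 4.74, 4.04 and 4.31 FPKM in controls 1 to 3 (log2 change 0.60, SE 0.19, limma adjusted p = 0.575). Its q-value in the authors' deposited table was 0.40.

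The members of these lists with the smallest p after Ccne2 varied in sign. Dck, a nucleoside salvage kinase, was 33.1 and 44.0 FPKM in the cKO libraries, against 28.4, 31.6 and 27.2 FPKM in the controls, and Rrm2, the small subunit of ribonucleotide reductase, was 67.9 and 95.2 FPKM, against 36.2, 68.7 and 58.2 FPKM. Rrm2 had a q-value of 0.0391 in the authors' deposited table, where it was marked significant. Timeless, a fork protection factor also marked there (q-value 0.00590), was 9.89 and 6.70 FPKM in the cKO libraries, against 9.30, 18.7 and 14.7 FPKM in the controls. Its cKO 1 value lay inside the control range.

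Chek1, the kinase of the replication checkpoint, was 5.99 and 8.60 FPKM in the cKO libraries, against 3.79, 5.73 and 5.23 FPKM in the controls. The histone chaperones Rbbp4 and Ssrp1 differed in sign, with log2 changes of 0.36 and -0.46, as did Rbl1 and E2f4, partners in cell cycle repression, with 0.34 and -0.33. None of these passed (limma adjusted p = 0.575 for each). Mcmbp, which binds MCM proteins, and Atad5, which unloads PCNA, were above every control in both cKO libraries, with log2 changes of 0.32 and 0.24. They were 2 of the 19 origin firing and fork factors (10.5%), where 13.4% of all tested loci were above every control in both.

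Genes of G2 and mitosis showed the same order of the controls. Control 1 was the lowest library for 19 of 20 and was below control 2 for all 20, and their summed FPKM was 572.4 and 704.0 in cKO 1 and 2, against 429.7, 803.1 and 660.2 in controls 1 to 3. Their median log2 change was 0.02, and none passed limma over all loci. Cdca8, a subunit of the chromosomal passenger complex, was marked significant in the authors' deposited table (q-value 0.0450), and averaged 33.3 ± 10.8 FPKM in the cKO and 51.0 ± 17.6 FPKM in the controls (SD, n = 2 and 3). It lay inside the control range in cKO 1.

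Markers of progenitors and neurons were read beside these genes. All 6 intermediate progenitor genes (Eomes first) had negative changes. In both cKO libraries 4 of the 6 were below every control, where 15.6% of all tested loci were. Their summed FPKM was 257.0 and 195.5 in cKO 1 and 2, against 272.7, 606.8 and 382.6 in controls 1 to 3. All 6 were highest in control 2, the library in which most replication genes were highest. For the 10 radial glia genes (Pax6 first) 7 changes were negative. In both cKO libraries 3 of them were below every control and 1 was above, where 15.6% and 13.4% of all tested loci were. Their sums were 1449 and 1548 in the cKO libraries, against 1398, 1939 and 1607 in the controls. Vim and Fabp7, the most abundant of them, weigh most in these sums. The 9 neuronal genes (Tubb3 first) summed to 2754 and 2242 in the cKO libraries, against 2499, 2315 and 2445 in the controls. Of these, 3 were above every control in both cKO libraries and none was below.

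Microglia, which also divide at this age, contributed 12 markers (Csf1r first), all with positive changes. Their sums were 109.6 and 103.8 in the cKO libraries, against 38.5, 53.9 and 45.2 in the controls. In both cKO libraries 11 of the 12 were above every control, where 13.4% of all tested loci were. The 9 ventral telencephalic genes (Dlx1 first) summed to 467.2 and 560.1, against 257.4, 228.6 and 398.4. All 9 changes were positive, and 7 genes were above every control in both cKO libraries. The 6 endothelial genes (Pecam1 first) and 6 erythroid genes (Alas2 first) summed to 62.6 and 65.3, and 332.5 and 564.1, in the cKO libraries, against 58.3, 68.8 and 55.2, and 355.5, 364.8 and 359.3, in the controls. No marker of these 7 lists was at 0 in every library. The part of these cell types in the replication values was not tested.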

How the data were processed

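RNA from E14.5 cortex was measured in 2 Chd8 cKO and 3 control libraries, grouped by their titles. Per the labels' protocols, Illumina libraries were built from total RNA, and a treatment field speaks of an Eed cKO where titles and genotypes name Chd8. Per the submitters' processing notes, CASAVA, TopHat, Cufflinks, Bowtie2 and MACS were used with mm10, without versions or roles. The authors deposited non-whole values per locus, taken here as FPKM from the values and the Cufflinks-style locus names, with the mean FPKM of each group. Per the file headers, the table also held the authors' log2 fold change, a test statistic score, and p-values and q-values. The test statistic was not used. The sources used here give neither annotation nor strand setting. ATAC-seq samples of the series, 6 in number, were not used here.

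Loci averaging 1 FPKM or more were kept and taken as log2(FPKM + 1). The fit used limma 3.58.1 under R 4.3.3, with its trend on intensity and Benjamini-Hochberg adjustment, with 3 residual and 2.49 prior degrees of freedom. No counts were at hand: at most 56.0% of the loci under 0.05 FPKM fell within 0.15 log2 units of the commonest ratio between libraries, so whole reads were not recovered and no count test was made. Libraries differed from each other (Pearson correlations of 0.880 to 0.933 across loci). The procedure was tested on simulated data. Members and lists were chosen with earlier results of these data known. Values in every library are given for members at an unadjusted p under 0.05, members that do not overlap between groups and the most abundant member of each role. Up to 3 genes of the other lists follow the smallest p, and further genes were named after their values were seen. Coordinates are of GRCm38.p6, matched by symbol for all 47 members. Alternatives were other pseudocounts, filters, scalings, no trend, a replicate block and leaving out each library.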

Additional observations from a re-analysis of the deposited data

How the results depend on the processing

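No replication member passed limma at an adjusted p under 0.05 in the main setting or in any of the 12 alternatives; the smallest adjusted p in an alternative was 0.315, without control 1. The median log2 change of the members ran from -0.08 to 0.23 when a library was left out, and from 0.08 to 0.13 under a pseudocount of 0.1, other filters, scalings, no trend and the block. All these values lay within 0.274 of the main value, the SD of the library medians within groups. Scaling moved the median of all loci to 0.02 with equal upper quartiles and with quantile normalization, against -0.02 as deposited, and then 4 and 5 members changed sign. Without control 2, 13 members changed sign, and without control 1, 10 did. Under quantile normalization 5 members (10.6%) were above every control, against 16.7% of all loci. With the replicate number as a block 3 loci passed over all loci, against 6 in the main setting. Between 9 and 37 loci passed when a library was left out. The 25 without cKO 1 and the 37 without cKO 2 rest on the spread of the controls alone, with the lone cKO library assumed to vary like them. Whether the replicate numbers pair the libraries is unknown, since the labels name no shared litter. Deviations of same-numbered libraries correlated at -0.07 and -0.11, which with 2 cKO libraries cannot exclude a pairing. Depth is unknown, so the counting error of low members such as Orc1 cannot be given.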

Other observations

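Members often had a neighbour transcribed away from them. An annotated start on the opposite strand lay within 1000 bases upstream for 14 of the 39 members with a RefSeq promoter (35.9%), against 20.3% of 9555 genes of tested loci. These included 5 genes of the origin recognition complex: Orc1 with Prpf38a, Orc2 with Gm15834, Orc3 with Rars2, Orc4 with Mbd5 and Orc5 with 6030443J06Rik. Cdc45 lay beside Ufd1, Fen1 beside Tmem258, and Mcm7 beside Ap4m1. The annotated spans of 21 of the 47 members overlapped another gene, so single values of these depend on how reads were assigned.

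The cKO libraries were not alike in these genes. cKO 2 was above cKO 1 for 35 of 47 members (74.5%), against 44.5% of all tested loci. It was above every control for 20 members (42.6%), against 27.2% of the loci kept without cKO 1. The median ratio of cKO 2 to cKO 1 was 1.18 for the members and 0.971 for all loci.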
